A study of Mus musculus with 2 samples.

Results

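*Tnc*, *Mertk*, *Thsd4* and *Kcnb2* are 4 of the 32285 genes counted in this single-nucleus RNA sequencing (snRNA-seq) study of mouse tibialis anterior (TA) muscle. They were selected on measured values, as genes of non-muscle classes whose unique molecular identifier (UMI) counts appeared in myonuclei of the library labelled KO. The difference between the libraries in myonuclei and the expression in non-muscle classes are therefore given as descriptions. Both groups were C57BL/6 males of 6 weeks that carried Cre under the *Myf6* promoter. In the M-*Bcl6* KO group both *Bcl6* alleles were floxed (Myf6-Cre+ *Bcl6* fl/fl), and in the littermate M-*Bcl6* WT controls both were wild type (Myf6-Cre+ *Bcl6* wt/wt). Right and left TA muscles of 2 mice were pooled into 1 library per genotype, nuclei were sorted on a DNA dye, nuclei of the 2 mice cannot be told apart, and no test between genotypes was possible. All 95% intervals cover counting error only. *Bcl6*, the targeted gene, went against its label, with 1485 UMIs in WT and 4840 in KO myonuclei, or 168 and 501 counts per 1000000 UMIs of those nuclei (CPM). Counts over the whole gene do not read the floxed part separately, and the groups are named below by their labels. *Socs2*, a gene that BCL6 is known to repress and named here after its value was seen, had 633 UMIs in WT and 3691 in KO myonuclei, a log2 ratio of 2.42 (2.30 to 2.54).

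*Tnc* encodes tenascin-C, a large multimeric glycoprotein of the extracellular matrix. In adult limbs it is known from tendon and the myotendinous junction (MTJ), and it is made again during regeneration. *Mertk* encodes a receptor tyrosine kinase of the TAM family, which binds GAS6 and protein S and is best known for the uptake of apoptotic cells by macrophages. *Thsd4* encodes ADAMTSL6, a secreted thrombospondin-repeat protein that binds fibrillin-1 and promotes microfibril assembly. *Kcnb2* encodes Kv2.2, the pore-forming subunit of a delayed-rectifier potassium channel. A muscle fibre is a syncytium whose myonuclei transcribe the contractile genes. Its type is read from the myosin heavy chain it uses, *Myh4* (IIb), *Myh1* (IIx), *Myh2* (IIa) or *Myh7* (slow).

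The genes lie on 4 chromosomes of GRCm38. *Tnc* (ENSMUSG00000028364) spans 87.2 kb of chromosome 4 (63959785 to 64047015, minus strand), and its longest annotated transcript has 26 exons. *Mertk* (ENSMUSG00000014361) spans 104 kb of chromosome 2 (128698956 to 128802894, plus strand), with 19 exons. *Thsd4* (ENSMUSG00000032289) spans 555 kb of chromosome 9 (59966931 to 60522046, minus strand), with 18 exons. *Kcnb2* (ENSMUSG00000092083) spans 436 kb of chromosome 1 (15287254 to 15723750, plus strand), with 2 exons. Because the study concerns a DNA-binding repressor and the 4 genes were higher in the same library, the 250 bases before the most upstream RefSeq start (GRCm38.p6) are shown for the 3 genes that have one in the table used, each on the strand of its gene. They are chr4:64047016-64047265 for *Tnc*, chr2:128698665-128698914 for *Mertk* and chr9:60511036-60511285 for *Thsd4*. None of these windows overlaps an annotated GENCODE exon of its gene, and the *Thsd4* window lies inside the GENCODE gene span. Capitals mark the motif TATAAA.
Tnc: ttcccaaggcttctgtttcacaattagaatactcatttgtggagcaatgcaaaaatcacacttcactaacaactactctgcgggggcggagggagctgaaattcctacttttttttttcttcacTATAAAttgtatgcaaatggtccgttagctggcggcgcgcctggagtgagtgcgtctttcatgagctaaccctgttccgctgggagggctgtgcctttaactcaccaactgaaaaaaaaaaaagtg
Mertk: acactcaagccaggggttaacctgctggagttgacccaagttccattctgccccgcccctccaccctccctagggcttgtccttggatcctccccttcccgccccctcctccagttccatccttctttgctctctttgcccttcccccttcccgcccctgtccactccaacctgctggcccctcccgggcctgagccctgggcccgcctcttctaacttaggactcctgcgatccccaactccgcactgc
Thsd4: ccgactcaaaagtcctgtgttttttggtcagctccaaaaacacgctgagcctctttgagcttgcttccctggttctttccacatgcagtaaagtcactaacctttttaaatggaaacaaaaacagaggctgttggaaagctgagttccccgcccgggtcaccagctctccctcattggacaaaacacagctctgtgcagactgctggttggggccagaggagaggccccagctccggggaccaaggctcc
The motif TTCCTNGAA, the core bound by BCL6, was searched on both strands and had no match in the 3 windows. It is present in 1.31% of 32841 windows of this length. The looser TTCNNNGAA, of which every TTCCTNGAA is a part and which STAT proteins also bind, had no match either and is present in 7.02%. The outline of a site for the muscle factor MEF2 had no match (3.203% of windows). At such shares a lack of matches in 3 windows is the usual outcome, so nothing is read from it. Bases outside these windows were not searched, and binding was not measured here. TATAAA matched once, 126 bases before the *Tnc* start (12.4% of windows). *Kcnb2* is not in the promoter table. The windows contained 44.8% G and C for *Tnc*, 52.8% for *Thsd4* and 63.6% for *Mertk*, beside a median of 52.4%.

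After filtering, 3674 WT and 3944 KO nuclei remained, from 11974138 and 12026013 deposited UMIs, and the libraries shared 6 barcode sequences. Clustering without the 4 genes, and without genes that differed 2-fold or more between the libraries in myonuclei, gave 19 clusters. Of these, 8 were myonuclear, with 2415 WT nuclei (median 3127 UMIs) and 3091 KO nuclei (median 2713 UMIs). Their 10 markers held 97406 and 113579 CPM. Myonuclei made up 65.7% of the WT library and 78.4% of the KO library.

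All 4 genes were close to absent from WT myonuclei and present in KO myonuclei. *Tnc* had 5 UMIs or 0.564 CPM (0.183 to 1.32) in WT and 1623 UMIs or 168 CPM (160 to 176) in KO, a log2 ratio of 8.22 (6.99 to 9.84). *Mertk* had 9 UMIs or 1.02 CPM (0.464 to 1.93) in WT and 557 UMIs or 57.7 CPM (53.0 to 62.7) in KO, a log2 ratio of 5.83 (4.89 to 6.96). Every WT nucleus with either gene had a single UMI of it. *Thsd4* had 24 UMIs or 2.71 CPM (1.74 to 4.03) in WT and 459 UMIs or 47.5 CPM (43.3 to 52.1) in KO, a log2 ratio of 4.13 (3.54 to 4.79). *Kcnb2* had 10 UMIs or 1.13 CPM (0.541 to 2.08) in WT and 308 UMIs or 31.9 CPM (28.4 to 35.7) in KO, a log2 ratio of 4.82 (3.92 to 5.90). For each gene the 2 libraries' intervals did not overlap. With the 12447 genes that reached 20 myonuclear UMIs ordered from the highest ratio down, *Tnc* was at place 7, *Mertk* at 14, *Kcnb2* at 23 and *Thsd4* at 32. All 4 were 8-fold or more higher in the KO library, as 0.466% of these genes were. The genes were selected on this contrast, so nothing is read from that count or from the intervals that did not overlap. The share of all genes with such intervals was not counted. The class given to a nucleus mattered for *Thsd4* and *Mertk*. With nuclei classed one by one from their own marker UMIs, which put 2532 WT and 3181 KO nuclei among myonuclei, their log2 ratios were 0.96 (0.75 to 1.17) and 3.22 (2.83 to 3.62), while those of *Tnc* and *Kcnb2* were 7.23 and 4.72. That rule asked less of a nucleus than the 40000 CPM of myonuclear markers asked of a cluster. The muscle stem cell-like cluster, which carries *Thsd4*, exceeded that lower level on average, with 10691 CPM of these markers. The part of such nuclei in the ratios was not tested. Strict myonuclei had at least 5% of their UMIs from myonuclear markers and no UMI of any non-muscle marker (735 WT and 1216 KO nuclei). Those markers include *Abcc9*, at 283 CPM in WT and 237 CPM in KO myonuclei, so myonuclei with *Abcc9* were left out too. Among strict myonuclei the log2 ratio was 8.32 for *Tnc*, 4.43 for *Thsd4* and 5.83 for *Kcnb2*, and *Mertk* had no UMI in WT.

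The UMIs were held by a minority of KO myonuclei, and differently for each gene. *Tnc* was detected in 472 of 3091 KO nuclei, 15.3% (14.0 to 16.6), with up to 54 UMIs in a nucleus. Its 100 nuclei with 5 or more UMIs held 60.9% of all its UMIs. With its UMIs spread in proportion to depth, 1193 nuclei would have had any and 3.64 would have had 5 or more. *Kcnb2* was the most concentrated relative to an even spread, with 84 nuclei against 289 and up to 14 UMIs in a nucleus. Its 27 nuclei with 5 or more UMIs held 66.6% of its UMIs. *Mertk* was detected in 337 nuclei (even spread 497), at up to 12 UMIs, and 228 of these nuclei had a single UMI. *Thsd4* was detected in 261 nuclei (even spread 418), at up to 13 UMIs, and 172 had a single UMI. In WT myonuclei, *Tnc* was seen in 5 nuclei, *Mertk* in 9, *Thsd4* in 15 and *Kcnb2* in 7, and the highest count was 5 UMIs of *Thsd4* in 1 nucleus.

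**Figure D1:**
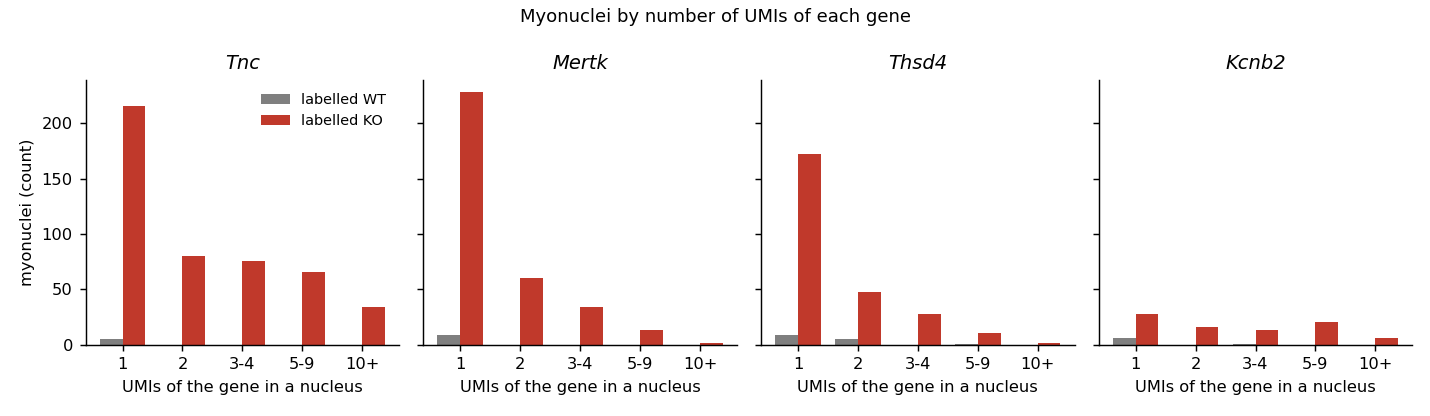
Myonuclei (count, vertical axis) by the number of UMIs of each gene in the nucleus (horizontal axis) in the libraries labelled WT (grey) and KO (red), nuclei without a UMI being left out. In the KO library 100 nuclei had 5 or more UMIs of *Tnc* and 27 had 5 or more of *Kcnb2*, whereas *Mertk* and *Thsd4* were mostly seen as single UMIs.

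Detection depends on depth, so nuclei were also thinned to 1000 UMIs each, which left out 29 WT and 77 KO myonuclei. *Tnc* was then detected in 8.36% of KO myonuclei (7.40 to 9.41) and 0.126% of WT myonuclei (0.0259 to 0.367). *Mertk* was detected in 4.38% (3.68 to 5.17) and 0.126% (0.0259 to 0.367). Both WT shares rest on 3 nuclei. *Thsd4* was detected in 3.25% (2.65 to 3.95) and 0.210% (0.0681 to 0.488). *Kcnb2* was detected in 1.76% (1.32 to 2.29) and 0.0838% (0.0102 to 0.302). Each KO interval lay above the WT interval, but the genes were selected on this contrast, so nothing is read from that. Free RNA can put UMIs into nuclei that do not transcribe a gene. Its amount was not measured, and shares in classes with few UMIs of a gene are given for comparison. The source of the UMIs in those classes was not tested. In the unthinned KO library, *Tnc* and *Thsd4* were each seen in 2 of 129 endothelial-like nuclei, 1.55% at a median depth of 1754 UMIs. *Kcnb2* was seen in 1 of these nuclei (0.775%). *Mertk*, which endothelial-like nuclei carry, was seen in 4 of 125 nuclei of the muscle stem cell (MuSC)-like class, 3.2% at a median depth of 1308 UMIs. On thinned nuclei the comparison was narrower for *Mertk*, with 2.33% (0.283 to 8.15) of MuSC-like nuclei, and for *Kcnb2*, with 0.893% (0.0226 to 4.87) of endothelial-like nuclei. Both of these intervals included the share in KO myonuclei. For *Tnc* and *Thsd4*, 0 of 112 thinned endothelial-like nuclei had a UMI (0 to 3.24%). That interval overlapped the *Thsd4* interval of KO myonuclei and lay below the *Tnc* interval.

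The fibre type of each nucleus was taken from the adult *Myh* gene with the most UMIs, a measure that did not enter the choice of the 4 genes. In the KO library 612 nuclei were led by *Myh4*, 1175 by *Myh1*, 482 by *Myh2* and 19 by *Myh7*, and 803 had none or a tie. In the WT library these were 704, 1161, 234, 2 and 314 nuclei. *Tnc* and *Thsd4* were highest toward the oxidative end, *Kcnb2* was highest in *Myh4* nuclei among those with a main gene, and *Mertk* was spread most evenly.

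*Tnc* in KO myonuclei was 31.2 CPM (23.4 to 40.7) in *Myh4* nuclei, 123 CPM (112 to 134) in *Myh1* nuclei, 468 CPM (436 to 502) in *Myh2* nuclei and 2461 CPM (2101 to 2865) in *Myh7* nuclei. The 4 intervals did not overlap, but they take each UMI as independent. As 100 nuclei held 60.9% of the *Tnc* UMIs, they are too narrow for a comparison of groups of nuclei. The *Myh7* level rests on 166 UMIs of 14 nuclei. The share of all genes whose intervals separate by main *Myh* gene was not counted. The log2 ratio of *Myh2* over *Myh4* nuclei was 3.91 (3.51 to 4.33). *Myh2* nuclei, 15.6% of KO myonuclei, held 48.2% of the *Tnc* UMIs, and the 19 *Myh7* nuclei held 10.2%. At 1000 UMIs each, *Tnc* was detected in 1.18% of *Myh4*, 7.71% of *Myh1*, 25.2% of *Myh2* and 64.7% (11 of 17) of *Myh7* nuclei. No *Tnc* UMI was seen in the 234 *Myh2* nuclei of the WT library, where 3 counts would be 3.47 CPM. With those 3 counts put in for WT, the log2 ratio of KO over WT in *Myh2* nuclei would be 7.08. The exact lower limit of the ratio, with 0 counts in WT, was 6.77.

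*Thsd4* in KO myonuclei was 19.1 CPM (13.1 to 26.8) in *Myh4* nuclei, 46.6 CPM (40.2 to 53.8) in *Myh1* nuclei, 96.9 CPM (82.6 to 113) in *Myh2* nuclei and 252 CPM (147 to 404) in *Myh7* nuclei. The order was that of *Tnc* with a smaller range. The intervals did not overlap, but they too take each UMI as independent, and the share of all genes with such intervals was not counted. Its log2 ratio of *Myh2* over *Myh4* nuclei was 2.35 (1.80 to 2.93), and 3.0 (2.33 to 3.75) without the clusters of the MTJ and the neuromuscular junction (NMJ).

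*Kcnb2* followed the opposite order. It was 57.2 CPM (46.5 to 69.6) in *Myh4* nuclei, 21.1 CPM (16.8 to 26.1) in *Myh1* nuclei and 8.97 CPM (5.02 to 14.8) in *Myh2* nuclei of the KO library, a log2 ratio of -2.67 (-3.56 to -1.88) for *Myh2* over *Myh4*. The 19 *Myh7* nuclei had no *Kcnb2* UMI, where 3 counts would be 44.5 CPM, so a level like that of *Myh1* nuclei was not detectable there. Nuclei with none or a tie carried 50.6 CPM (41.6 to 61.1). This order rested partly on nuclei with many UMIs. Counted as nuclei with a UMI at 1000 UMIs each, the log2 ratio was -1.36 (-3.16 to 0.16), with 2.69% of *Myh4* and 1.05% of *Myh2* nuclei, and the interval included 0. Without nuclei with 5 or more *Kcnb2* UMIs it was -1.11 (-2.10 to -0.19).

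*Mertk* differed least between fibre types, with 35.2 CPM (26.9 to 45.2) in *Myh4* nuclei, 63.0 CPM (55.5 to 71.3) in *Myh1* nuclei and 45.5 CPM (35.8 to 56.9) in *Myh2* nuclei of the KO library. The *Myh2* and *Myh4* intervals overlapped, and their log2 ratio was 0.37 (-0.14 to 0.88). *Myh1* nuclei were above *Myh4* nuclei, with a log2 ratio of 0.84 (0.43 to 1.27). *Myh2* nuclei were also above *Myh4* nuclei when a nucleus needed at least 3 *Myh* UMIs with 80% from its main gene, at 1.09 (0.32 to 1.90). *Myh7* nuclei gave 6 UMIs or 89.0 CPM (32.6 to 194), and nuclei with none or a tie 74.3 CPM (63.3 to 86.8).

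**Figure D2:**
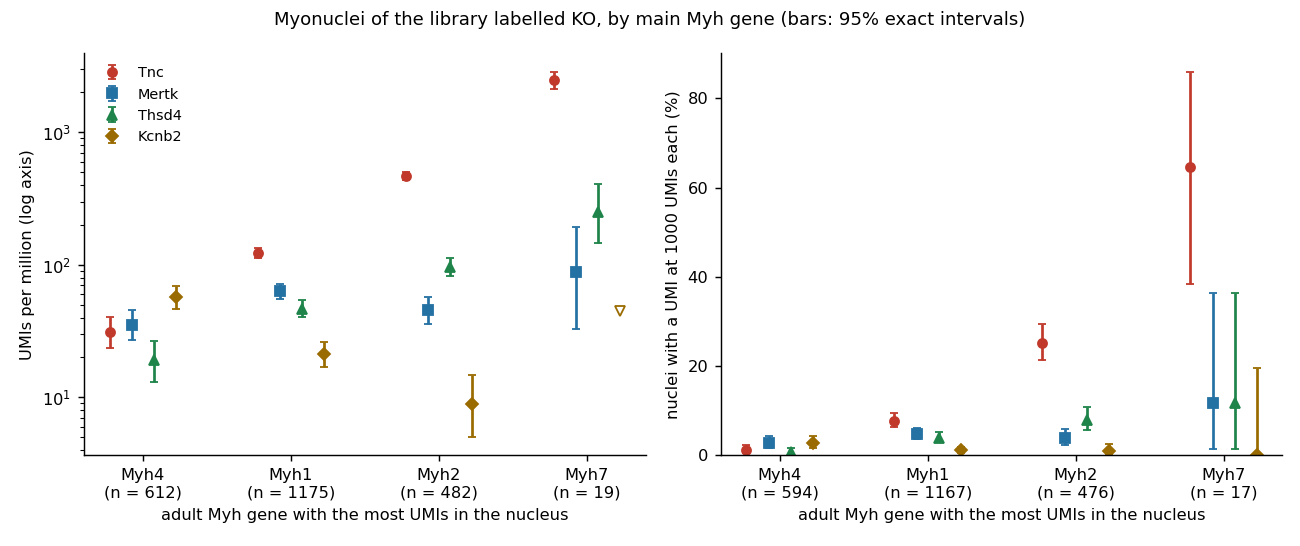
Left, CPM of each gene (log axis) in KO myonuclei by main *Myh* gene, with exact 95% Poisson intervals and an open triangle at 3 counts where no UMI was seen. Right, the share of nuclei with a UMI after thinning to 1000 UMIs each, with exact 95% Clopper-Pearson intervals. *Tnc* went from 31.2 CPM in *Myh4* nuclei to 2461 CPM in *Myh7* nuclei, *Thsd4* from 19.1 to 252 CPM, and *Kcnb2* fell from 57.2 CPM in *Myh4* to 8.97 CPM in *Myh2* nuclei.

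The myonuclear clusters, formed without these genes, also separated them. *Tnc* was 362 CPM (341 to 383) in KO nuclei of cluster 0, whose leading genes include *Ppara*, *Myoz2*, *Ppargc1a* and *Ankrd2*, and 119 CPM (106 to 133) in cluster 1, led by *Tnfrsf19*, *Tbc1d4* and *Casq2*. *Ppara* and *Ppargc1a* control genes of oxidative metabolism. *Tnc* was 12.4 CPM (7.22 to 19.8) in cluster 2, led by *Gpt2*, *Actn3* and *Spns2*, and 16.3 CPM (9.66 to 25.8) in cluster 4, led by *Myh4*. *Mertk* crossed these groups, with 74.7 CPM (65.5 to 84.8) in cluster 0, 83.8 CPM (69.2 to 101) in cluster 2 and 109 CPM (91.2 to 129) in cluster 5, led by *Nr4a3* and *Trim63*. It was 17.8 CPM (13.01 to 23.7) in cluster 1 and 20.8 CPM (13.2 to 31.2) in cluster 4. *Thsd4* was 79.1 CPM (69.6 to 89.5) in cluster 0 and 56.4 CPM (47.6 to 66.3) in cluster 1, but 2.92 CPM (0.795 to 7.47) in cluster 2 and 0.833 CPM (0.0211 to 4.64) in cluster 5. *Kcnb2* was 86.0 CPM (71.2 to 103) in cluster 2, 17.9 CPM (13.5 to 23.2) in cluster 0 and 10.9 CPM (5.61 to 19.0) in cluster 4, although cluster 4 is led by *Myh4*.

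Nuclei of the specialised regions of the fibre, at the MTJ and the NMJ, were few, and *Thsd4* stood out at the MTJ. The MTJ-like cluster had 25 WT and 34 KO nuclei and the NMJ-like cluster 15 and 8. *Thsd4* was 101 CPM (50.2 to 180) in WT and 402 CPM (295 to 534) in KO MTJ-like nuclei, on 11 and 47 UMIs, so that 11 of its 24 UMIs in WT myonuclei were there. These KO UMIs came from 8 nuclei. *Kcnb2* was 128 CPM (71.7 to 211) in KO MTJ-like nuclei, on 15 UMIs of 3 nuclei, and 322 CPM (129 to 663) in KO NMJ-like nuclei, on 7 UMIs of 2 nuclei. Its MTJ-like interval overlapped that of cluster 2, and after thinning 1 KO nucleus of each junctional cluster had a UMI, so a higher level of *Kcnb2* at the junctions was not shown. *Tnc*, known from the MTJ, had no UMI in WT MTJ-like nuclei, where 3 counts would be 27.4 CPM, so a lower level was not detectable. In KO MTJ-like nuclei it was 85.4 CPM (41.0 to 157), below its level in cluster 0. *Mertk* had no UMI in either cluster in either library, where 3 counts would be 25.6 CPM in KO MTJ-like nuclei and 138 CPM in KO NMJ-like nuclei.

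Most KO myonuclei with any of the 4 genes had only 1 of them, and those with 2 or more were not fewer than independent detection would give. In the KO library 954 of 3091 myonuclei, 30.9% (29.2 to 32.5), had at least 1 of them, 180 had 2, 10 had 3 and none had 4. Independent detection at the observed shares would, without regard to depth, give 1013 nuclei with at least 1 and 134 with 2 or more, beside the 190 seen. In the WT library 36 of 2415 myonuclei, 1.49% (1.05 to 2.06), had 1 and none had 2, where 3 counts would be a share of 0.124% and the exact upper limit is 0.153%. *Tnc* alone was in 318 KO nuclei, *Mertk* alone in 239, *Thsd4* alone in 146 and *Kcnb2* alone in 61. *Tnc* with *Thsd4* was the most frequent pair, with 86 nuclei.

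Since deep nuclei detect any gene more often, the expected number of nuclei with both genes of a pair was summed over 10 bins of depth. *Tnc* and *Thsd4* were seen together in 86 nuclei against 48.0 expected, a ratio of 1.79 (1.43 to 2.21), and 33.0% of *Thsd4* nuclei carried *Tnc*. When the expectation was formed within each main *Myh* class as well, it rose to 72.2 nuclei and the ratio was 1.19 (0.95 to 1.47). The interval then included 1. *Tnc* and *Mertk* were together in 69 nuclei, a ratio of 1.15 (0.898 to 1.46), and *Mertk* and *Thsd4* in 30, a ratio of 0.865 (0.583 to 1.23). The pairs with *Kcnb2* were rare, with 8 nuclei for *Tnc* at 0.555 (0.239 to 1.09), 8 for *Mertk* at 0.780 (0.337 to 1.54) and 9 for *Thsd4* at 1.07 (0.488 to 2.02). These 5 intervals included 1. On nuclei thinned to 1000 UMIs, the only pair whose interval left out 1 was again *Tnc* and *Thsd4*, with 16 nuclei against 8.19 expected, a ratio of 1.95 (1.12 to 3.17), and 1.09 (0.62 to 1.77) within main *Myh* classes.

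**Figure D3:**
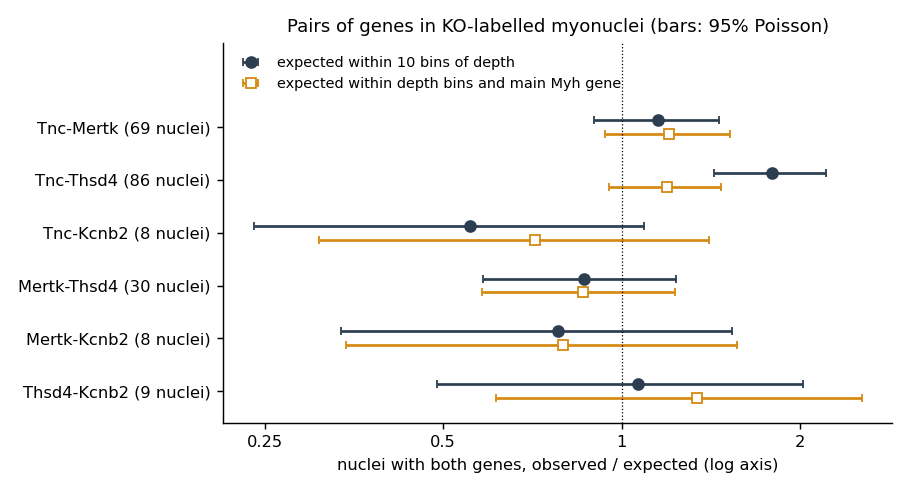
Nuclei of the KO library with both genes of a pair, as observed over expected (log axis), with exact 95% Poisson intervals. Filled circles use an expectation summed over 10 bins of depth, and open squares one formed within depth bins and main *Myh* gene. *Tnc* and *Thsd4* sit at 1.79 by depth alone and at 1.19 within main *Myh* gene, and the other pairs' intervals cross 1.

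The gene model 8030451A03Rik lies on the plus strand and overlaps *Tnc* (chromosome 4, 63979854 to 64149924). It was looked at after its values were seen. It had 1 UMI in WT myonuclei and 131 UMIs or 13.6 CPM (11.3 to 16.1) in KO myonuclei, at place 9 of the ordered genes. Of its 85 positive KO nuclei, 65 carried *Tnc*, 76.5% (66.0 to 85.0). The ratio to the number expected by depth was 3.79 (2.92 to 4.83), and 2.10 (1.62 to 2.68) within depth and main *Myh* class. It also had the fibre type order of *Tnc*, with 1.15 CPM (0.140 to 4.17) in *Myh4*, 9.92 CPM (7.09 to 13.5) in *Myh1*, 35.3 CPM (26.9 to 45.5) in *Myh2* and 326 CPM (204 to 494) in *Myh7* nuclei. There were 8.07 of its UMIs for every 100 of *Tnc* in KO myonuclei, and in tenocyte-like nuclei 5.33 in WT and 15.4 in KO, on 4 and 6 UMIs. How strand was used in the counting is not given in the sources used here, so reads of the overlapping genes cannot be told apart.

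Outside muscle fibres all 4 genes were carried by tenocyte-like nuclei, and beyond these by different classes. The genes were selected for being carried by non-muscle classes. *Tnc* was highest in tenocyte-like nuclei, with 582 CPM (458 to 730) in WT and 281 CPM (200 to 384) in KO, on 75 and 39 UMIs. Each of those sums came from 21 nuclei. In the fibro-adipogenic progenitor (FAP)-like class it was 46.5 CPM (34.7 to 61.0) in WT and 16.9 CPM (8.74 to 29.6) in KO, from 6 nuclei in each library. MuSC-like, macrophage-like, endothelial-like and pericyte/smooth muscle-like nuclei held 1 or 2 UMIs of *Tnc* per library. The KO tenocyte-like level was lower than the WT level, with a log2 ratio of -1.05 (-1.65 to -0.48), while the myonuclear level was higher.

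*Mertk* was carried by several classes. It was 590 CPM (465 to 738) in WT and 712 CPM (579 to 867) in KO tenocyte-like nuclei, and 306 CPM (252 to 368) and 296 CPM (236 to 366) in pericyte/smooth muscle-like nuclei. Both pairs of intervals overlapped. In macrophage-like nuclei, where the receptor serves engulfment, it was 361 CPM (278 to 461) in WT and 780 CPM (637 to 946) in KO, a log2 ratio of 1.11 (0.65 to 1.59) on 97 and 63 nuclei. Endothelial-like nuclei had 200 CPM (158 to 249) and 284 CPM (224 to 356), and FAP-like nuclei 59.9 CPM (46.4 to 76.1) and 60.6 CPM (43.9 to 81.7). The KO myonuclear level of 57.7 CPM was thus near that of FAP-like nuclei. Small groups carried more *Mertk*. The small pericyte/smooth muscle-like cluster described below for *Thsd4* had 1018 CPM in WT and 1216 CPM in KO, on 46 and 28 UMIs. The larger cluster of that class had 206 and 214 CPM. The 10 WT and 5 KO Schwann-like nuclei had 804 and 794 CPM, on 15 and 7 UMIs.

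*Thsd4* was highest, among classes with at least 30 nuclei in each library, in WT MuSC-like nuclei with 658 CPM (565 to 762), beside 485 CPM (391 to 594) in KO. Macrophage-like nuclei had 468 CPM (373 to 580) and 417 CPM (314 to 542), and tenocyte-like nuclei 349 CPM (255 to 467) and 568 CPM (450 to 708). In the pericyte/smooth muscle-like class nearly all of it came from a small cluster led by *Olfr78*, *Olfr560* and *Trpv1* that also has *Acta2*, *Myocd* and *Tagln* among its leading genes. That cluster, of 11 WT and 6 KO nuclei, had 2854 CPM (2383 to 3391) and 2563 CPM (1951 to 3306), with a UMI in every nucleus. The larger pericyte/smooth muscle-like cluster had no UMI in 148 WT nuclei and 2 in 110 KO nuclei. Endothelial-like nuclei had 2 UMIs in each library.

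*Kcnb2* was carried by tenocyte-like and FAP-like nuclei. It was 163 CPM (101 to 249) in WT and 130 CPM (76.8 to 205) in KO tenocyte-like nuclei, from 5 and 4 nuclei, and 85.0 CPM (68.8 to 104) and 111 CPM (88.2 to 139) in FAP-like nuclei. Both pairs of intervals overlapped. Macrophage-like nuclei had none in either library, where 3 counts would be 16.9 and 22.7 CPM, and the MuSC-like, endothelial-like and pericyte/smooth muscle-like classes had 2 UMIs or fewer.

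**Figure D4:**
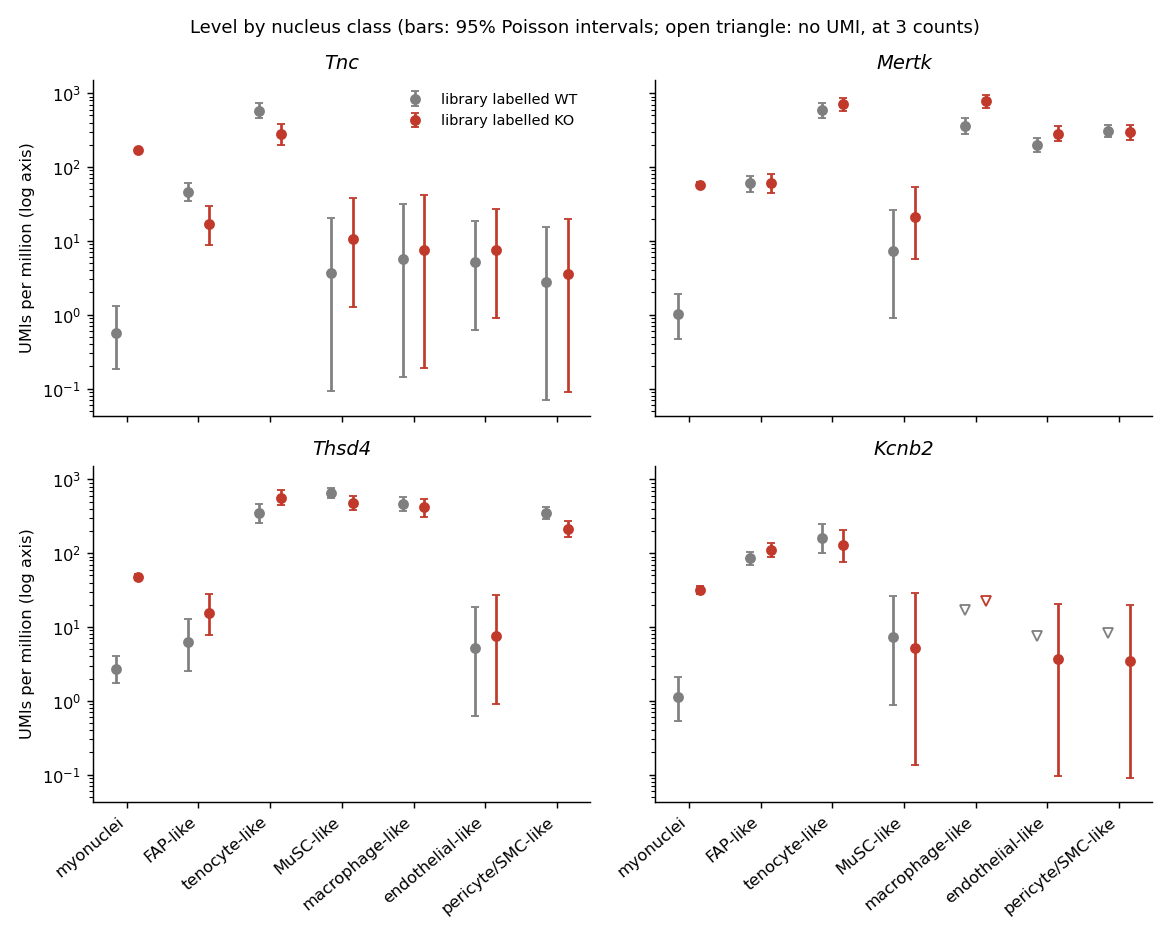
CPM of each gene (log axis) in myonuclei and the 6 largest non-muscle classes of the libraries labelled WT (grey) and KO (red), with exact 95% Poisson intervals and an open triangle at 3 counts where no UMI was seen. In myonuclei the red points lie far above the grey ones, as for *Tnc* at 168 and 0.564 CPM, and in most other classes the intervals of the libraries overlap or lie close.

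Markers of the classes that carry the genes were low in myonuclei of both libraries. *Tnc* in KO myonuclei reached 59.9% of its level in KO tenocyte-like nuclei, whereas the summed tenocyte markers reached 0.140% of theirs, with *Tnmd* and *Comp* at 0. In WT these were 0.0969% and 0.0862%. *Kcnb2* reached 24.6% of its KO tenocyte-like level and *Thsd4* 8.36%. *Mertk* reached 7.39% of its KO macrophage-like level, beside 0.317% for the macrophage markers. The 4 genes were selected for being seen in KO myonuclei and the markers were not, so nothing is read from these contrasts. Over all myonuclei the summed markers were 29.1 CPM in WT and 24.1 CPM in KO for FAPs (8 markers), 18.1 and 17.5 CPM for endothelial cells (8), 22.0 and 19.1 CPM for MuSCs (7), and 26.5 and 26.7 CPM for macrophages (7, mostly *Mrc1*). For pericytes and smooth muscle (7, mostly *Abcc9*) they were 293 and 245 CPM. The 6 tenocyte markers were 3.95 CPM in WT and 7.46 CPM in KO. Most of that difference was *Mkx*, a tendon transcription factor, with 11 and 47 UMIs. Markers of lymphatic endothelium, Schwann cells, adipocytes and lymphocytes summed to at most 19.99 CPM each.

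These sums were compared between KO myonuclei with and without the genes, and FAP and tenocyte markers were similar. The 954 nuclei with at least 1 of the 4 genes had 23.4 CPM (18.7 to 29.0) of FAP markers and 7.81 CPM (5.19 to 11.3) of tenocyte markers. The 2137 without had 24.6 CPM (20.8 to 28.8) and 7.25 CPM (5.27 to 9.73). For the 4 genes together, pericyte and smooth muscle markers were lower with the genes, at 216 CPM (201 to 231) against 262 CPM (250 to 276), and lymphatic endothelial markers were 10.6 CPM (7.50 to 14.5) against 5.60 CPM (3.88 to 7.83). Nuclei with *Tnc* had 39.5 CPM (30.8 to 49.8) of macrophage markers against 23.8 CPM (20.5 to 27.5) in nuclei without. Nuclei with *Thsd4* had 41.9 CPM (30.4 to 56.2) of macrophage markers and 16.2 CPM (9.42 to 25.9) of tenocyte markers, against 24.9 CPM (21.7 to 28.4) and 6.39 CPM (4.82 to 8.32). Nuclei with *Mertk*, the gene that macrophages use, had macrophage markers at 24.5 CPM (16.7 to 34.6) against 27.1 CPM (23.7 to 30.8), with overlapping intervals. Pericyte and smooth muscle markers were lower in nuclei with *Tnc*, at 211 CPM (191 to 234) against 253 CPM (242 to 264), and with *Thsd4*, at 195 CPM (169 to 224) against 251 CPM (241 to 262). The markers of the fibre's own junctions moved more. Over all KO myonuclei the NMJ sum was mostly *Musk*, with 76.9 of 91.5 CPM. NMJ markers were 358 CPM (295 to 431) in the 84 nuclei with *Kcnb2* and 82.5 CPM (76.7 to 88.5) in those without, and 149 CPM (137 to 162) against 57.5 CPM (51.6 to 63.9) for the 4 genes together. *Musk* was also among the 5 genes most like *Kcnb2* over KO myonuclei (r = 0.096). The part of *Musk* in the sums of these groups was not counted. MTJ markers were 221 CPM (193 to 251) with *Thsd4* and 84.5 CPM (78.5 to 90.9) without, and the order was opposite for *Mertk*, with 37.5 CPM (27.7 to 49.6) against 109 CPM (102 to 116). Depth moved with detection as well, with a median of 3383 UMIs in nuclei with at least 1 gene and 2433 in nuclei without. The part of depth and of these markers in the results was not tested.

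*Meg3*, *Rian* and *Mirg*, noncoding RNAs of the imprinted Dlk1-Dio3 region, had log2 ratios of 5.73, 5.78 and 5.52 in the same comparison. Their nuclei overlapped those of the 4 genes in different degrees. On thinned KO nuclei, *Meg3* was detected in 49.6% (43.3 to 55.9) of nuclei with *Tnc* and 69.4% (67.6 to 71.1) of those without, and *Mirg* in 4.76% (2.48 to 8.17) and 24.3% (22.7 to 26.0). Within main *Myh* classes, the observed number of nuclei with both over the expected number was 0.85 (0.71 to 1.02) for *Meg3* and 0.473 (0.244 to 0.826) for *Mirg*. Among the 476 *Myh2* nuclei, the *Meg3* shares were 49.2% (39.9 to 58.4) with *Tnc* and 52.2% (46.9 to 57.5) without. Nuclei with *Kcnb2* had *Meg3* more often, at 83.0% (70.2 to 91.9) against 67.5% (65.8 to 69.2). That ratio within main *Myh* classes was 1.17 (0.85 to 1.57) for *Kcnb2* and *Meg3*, and for *Mertk* and *Mirg* it was 0.412 (0.206 to 0.737). *Bcl6* was detected in 26.6% (21.2 to 32.5) of nuclei with *Tnc* and 36.8% (35.0 to 38.6) of those without, a ratio within *Myh* classes of 0.902 (0.699 to 1.15). *Meg3* was also higher in KO nuclei of classes with little of it in WT, with 56.3 and 520 CPM in WT and KO endothelial-like nuclei and 33.8 and 2810 CPM in macrophage-like nuclei. *Tnc* had 2 UMIs (7.48 CPM) and 1 UMI (7.58 CPM) in those KO classes. In KO myonuclei it was 168 CPM beside 20799 CPM of *Meg3*, so whether the 2 genes differ in these classes cannot be told.

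Genes related to the 4 by function were counted in lists. The counts are read beside the 12447 genes of the ordering, of which 5.4% were 2-fold or more higher in the KO library and 5.21% were 2-fold or more lower, with a median log2 ratio of -0.12. Scaling by TMM would raise every log2 ratio by 0.12. Of 14 other tenascins and tenascin receptors, 9 had 20 UMIs. The integrin subunit *Itga9* (105 and 229 UMIs, log2 ratio 1.00) and *Tlr4* (493 and 1078 UMIs, 1.01) were 2-fold higher, and *Tnxb* (35 and 18 UMIs, -1.08) was 2-fold lower. *Itgb6*, the list's most counted gene, had a log2 ratio of 0.69 (0.60 to 0.78), and *Itgav* 0.15 (-0.03 to 0.32). The list's median was 0.78.

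Of 15 genes of TAM signalling and engulfment, 11 had 20 UMIs, with a median log2 ratio of -0.08. *Axl*, a close relative of *Mertk*, had 4 UMIs in WT and 31 in KO, a log2 ratio of 2.83 (1.33 to 4.79), and it is named here after its value was seen. *Adgrb3*, an adhesion receptor, was lower at -1.90 (-2.25 to -1.56). The fatty acid transporter and scavenger receptor *Cd36* was at -0.74 (-0.77 to -0.70), *Megf10* at -0.84 (-1.50 to -0.20), *Dock1* at 0.07 (-0.23 to 0.38) and *Mfge8* at 0.22 (-0.09 to 0.53). The ligand *Gas6*, also outside the naming rule, had 265 UMIs in WT and 264 in KO.

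Of 23 genes of ADAMTSL proteins and microfibrils, 13 had 20 UMIs, with a median log2 ratio of -0.07. *Tgfb3* (78 and 219 UMIs, 1.37) and the latent TGF-beta binding protein *Ltbp1* (203 and 480 UMIs, 1.12) were 2-fold higher and none was 2-fold lower. *Adamtsl5*, the list's most counted gene, was at 0.39 (0.25 to 0.53), *Ltbp3* at -0.36 (-0.54 to -0.18) and *Adamtsl1* at -0.80 (-1.34 to -0.27). Of 16 Kv2 channel subunits and partners, 6 had 20 UMIs, with a median of -0.42. *Kcng2* (5 and 22 UMIs) was 2-fold higher, and *Amigo1* (41 and 22 UMIs) and *Kcnv2* (22 and 10 UMIs) were 2-fold lower. *Vapa* and *Vapb*, whose proteins tether Kv2 channels to the endoplasmic reticulum, were both at -0.24. *Kcng2* and *Kcnv2* were named after their values were seen.

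Of 12 genes of denervated and immature fibres, 6 had 20 UMIs, with a median of 0.59. *Runx1*, which rises in denervated muscle, was 2-fold higher (106 and 270 UMIs, 1.23), *Actc1*, the cardiac actin of immature fibres, was 2-fold lower (32 and 7 UMIs, named after its value was seen), and *Ncam1* was at 0.94 (0.72 to 1.16). *Myl4* was at 0.38 (-0.16 to 0.93) and *Myog* at 0.56 (-0.23 to 1.38). In all 4 measured genes of the Dlk1-Dio3 list the log2 ratio was above 5, and *Rtl1* had 9 and 932 UMIs. Among adult myosins *Myh7* had 5 UMIs in WT and 326 in KO, a log2 ratio of 5.90 (4.67 to 7.54). *Myh2* was at 0.53 (0.47 to 0.58), *Myh1* at -0.68 (-0.71 to -0.66) and *Myh4* at -0.75 (-0.81 to -0.70), so nuclei of the fibre types with most *Tnc* were also more numerous in the KO library. Within *Myh4* nuclei, the log2 ratio of *Tnc* was 5.28 (3.36 to 8.36) on 2 and 54 UMIs, and within *Myh1* nuclei 7.54 (5.99 to 9.82). Of the 5 MTJ markers, *Ankrd1* (1.19) and *Adamts20* (1.17) were 2-fold higher. *Col22a1* at -0.78 (-1.03 to -0.54) and *Slc24a2* at -0.67 (-1.18 to -0.16) went the other way, and the list's median was -0.17. Of the 5 NMJ markers, *Etv5* (-1.28) was 2-fold lower and *Musk* was at 0.79. *Colq* was at -0.70 (-1.17 to -0.24) and *Chrne* at -0.47 (-1.35 to 0.39).

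The genes whose pattern was most like that of the 4 were sought over 3091 KO myonuclei among 5093 genes with at least 200 UMIs, by Pearson's r of log-normalized values. These are descriptions over nuclei of 1 library, which share depth and many zeros. The sum of the 4 genes was most like *Myh2* (r = 0.29), *Ppara* (0.28), *Ankrd2*, *Esrrg* and *Myoz2* (0.27 each). *Tnc* itself was most like *Myh2* (0.36), *Ankrd2* (0.31) and *Myoz2* (0.30), and *Thsd4* most like *Prkg1* (0.23), *Esrrg* (0.22) and *Cd36* (0.21). For *Kcnb2* the highest r was lower, with *Man1a* at 0.15. Over 23 combinations of class and library, by r of log2(CPM + 10), *Tnc* was most like *Scube2* (0.89), *Dok5* (0.79) and *Otub2* (0.76), *Mertk* like *Stk24* (0.90), *Tnfaip8* (0.89) and *Nrp2* (0.85), *Thsd4* like *P3h2* (0.85), *Fam107b* (0.83) and *Pbx2* (0.82), and *Kcnb2* like *Kcnk2* (0.80), *Tiam2* and *Gpnmb* (0.77 each). *Scube2* was 4.63 CPM in WT and 43.3 CPM in KO myonuclei and 256 and 309 CPM in tenocyte-like nuclei. *Otub2* was 4.63 and 41.6 CPM in myonuclei, and *P3h2* 3.84 and 19.7 CPM.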

How the data were processed

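The values the authors deposited are whole UMI counts for every gene and barcode of the 2 libraries, not normalized. The submitters' processing notes name Cell Ranger 7.0.0, Seurat 5.0.3 and mm10. How introns and strand were counted is not given in the sources used here, and the methods and labels name different 10x kits. Coordinates are from GENCODE, promoters from RefSeq.

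Nuclei with 200 to 5000 genes and at most 5% mitochondrial UMIs were kept (11430179 WT and 11470460 KO UMIs after all filters). Scrublet (scanpy 1.11.5) ranked doublets, and the top 0.8% per 1000 barcodes (115 and 134) were removed, its own threshold marking 32 and 2. Seurat 5.3.0 (R 4.3.3) clustered after RPCA integration (2000 genes, 30 components, resolution 0.5), leaving out the 4 genes and 1334 genes 2-fold different in provisional myonuclei. Clusters were named from listed markers by a rule set after the clusters were seen: at least 40000 CPM of myonuclear markers, or 3 detected markers with 1 among the top 25 genes. Counts were summed per class and divided by all UMIs (CPM). The 95% intervals are Poisson, Clopper-Pearson or conditional on a gene's total. The computation was tested on simulated data (Python 3.11.15, scipy 1.17.1). TMM factors came from edgeR 4.0.16.

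The members and lists were chosen with earlier results of these data known. The genes named are the members, *Bcl6*, adult *Myh* genes, *Meg3*, *Rian* and *Mirg*, the most similar genes, and from each list, among genes with at least 50 UMIs, examples of the 2 highest and 2 lowest log2 ratios and the most counted gene. Alternatives changed doublet removal, class assignment, filters, scaling, thinning and the *Myh* rule. Some genes that the rule names are not reported here.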

Additional observations from a re-analysis of the deposited data

Results flagged for a closer look

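In 4 cases a gene was higher in KO than in WT myonuclei and lower in KO than in WT nuclei of a non-muscle class. The counting intervals lay on opposite sides of 0. The genes were selected for their presence in KO myonuclei, so that side of each case was set in advance. Only this direction was searched, and the share of all genes with such a pattern was not counted, so nothing is read from the number of cases. With 1 library per genotype, the difference between classes was not tested. *Tnc* had a log2 ratio of KO over WT of -1.05 (-1.65 to -0.48) in tenocyte-like nuclei, on 21 nuclei with a UMI in each library. In FAP-like nuclei it was -1.46 (-2.50 to -0.53), and there the UMIs came from 6 nuclei in each library. *Thsd4* had a log2 ratio of -0.44 (-0.82 to -0.07) in MuSC-like nuclei, and of -0.14 (-0.58 to 0.30) when nuclei were classed from their own markers. In pericyte/smooth muscle-like nuclei it was -0.71 (-1.18 to -0.26). The cluster that carries it there had 11 WT and 6 KO nuclei, and within that cluster the ratio was -0.15 (-0.62 to 0.30).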

How the results depend on the processing

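With 1 library per genotype and 2 pooled mice in each, no spread between animals is known, and at these depths a nucleus without a UMI may still transcribe the gene. No paired analysis was possible because no test was run and each group has 1 replicate. Under every alternative that gave a value, no log2 ratio of a member in myonuclei changed sign. Of these values 50 stayed within the counting interval and 5 did not. Classing nuclei from their own markers gave 3.22 for *Mertk* and 0.96 for *Thsd4*, and 1.53 (-0.96 to 4.87) for *Kcnb2* in tenocyte-like nuclei. Without MTJ-like and NMJ-like clusters *Thsd4* was 4.85. Without nuclei of 5 or more UMIs of the gene, an alternative chosen after seeing the data, *Tnc* was 6.94 and *Kcnb2* 3.26. Among strict myonuclei *Mertk* gave no ratio, since WT had 0 UMIs. Thinning to 500 UMIs gave shares of KO nuclei of 5.60% for *Tnc*, 2.49% for *Mertk*, 1.75% for *Thsd4* and 1.10% for *Kcnb2*, and thinning to 2000 UMIs 14.3%, 9.04%, 6.91% and 2.55%.

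The log2 ratio of *Myh2* over *Myh4* nuclei kept its sign for every gene. Among strict myonuclei it was 5.80 for *Tnc*, 1.06 for *Mertk* and 4.96 for *Thsd4*. With at least 3 *Myh* UMIs and 80% from 1 gene it was 5.33, 1.09, 5.81 and, for *Kcnb2*, -1.39. As shares of thinned nuclei it was 4.42 for *Tnc*, 3.57 for *Thsd4* and -1.36 for *Kcnb2*. Without junction clusters *Thsd4* was 3.0, and without nuclei of 5 or more UMIs it was 3.49 and *Kcnb2* -1.11. Observed over expected pairs on thinned nuclei were 0 for *Tnc* or *Mertk* with *Kcnb2* among strict myonuclei, 0 for *Mertk* with *Thsd4* at 500 UMIs, and 1.09 for *Tnc* with *Thsd4* within main *Myh* classes. The interval of *Tnc* with *Thsd4* also included 1 among strict myonuclei, at 2.23 (0.96 to 4.39), and that of *Tnc* with *Mertk* left out 1 without doublet removal, at 1.69 (1.02 to 2.64).

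List counts at 2-fold moved as follows. With at least 100 UMIs, tenascins lower, TAM genes higher, Kv2 genes higher and lower and denervation genes lower were 0 each, and 3.32% of all genes were higher and 3.04% lower. With TMM, tenascins higher was 3, tenascins lower 0, Kv2 lower 1 and denervation higher 2, and 6.47% of all genes were higher and 4.09% lower. Without *Meg3*, *Rian* and *Mirg* in the total, Kv2 lower was 1. Among strict myonuclei, tenascins higher and denervation higher were 3 each, and tenascins lower, TAM higher, Kv2 higher, Kv2 lower and denervation lower were 0. The cause of these shifts was not tested.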
